A study of Mus musculus with 2 samples.

Results

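The proteasome genes of 4T1 cells were chosen by symbol: the non-control probes of the array whose gene symbol starts with Psma, Psmb, Psmc, Psmd, Psme, Psmf or Psmg and a number, with 5 genes excepted, the immunoproteasome catalytic subunits Psmb8, Psmb9 and Psmb10 and the PA28 subunits Psme1 and Psme2. The symbols gave 44 genes, read by 54 probes, of the 22128 genes with a symbol on the array. Of these, 16 belong to the 20S core (Psma and Psmb), 21 to the regulatory particle (Psmc and Psmd) and 7 to neither (Psme, Psmf and Psmg). Psmc3ip was taken in by its symbol alone, since its product is an interactor of a proteasome ATPase that acts in meiotic recombination and is no subunit.

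4T1 is a cell line from a BALB/C mouse mammary carcinoma. Untreated cultured cells were sorted by the ALDEFLUOR assay, in which aldehyde dehydrogenase (ALDH) turns a substrate into a fluorescent product that stays in the cell. One sample was labelled cancer stem cell and the other anti cancer stem cell, and following the study's use of high ALDH activity as the mark of stem-like cells they are called ALDH-positive and ALDH-negative here, although the sample labels do not themselves name the ALDH gate. Total RNA of each population was read on 1 array, so each comparison below sets 1 array against 1 array without replicates and without a test.

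The proteasome degrades proteins that carry ubiquitin chains. Its 20S core is a barrel of outer alpha and inner beta rings with the proteolytic sites inside, and the regulatory particle caps the barrel, where its receptors bind ubiquitin, its deubiquitinase removes the chain and its ATPase ring unfolds the substrate and opens the gate. Because the subunits are built into 1 complex in fixed proportion, their genes are known to be transcribed together, and the transcription factor Nfe2l1 raises them when the proteasome is impaired.

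Values are normalized signals in intensity units and the log2 ratio of ALDH-positive over ALDH-negative, and where a pair of signals stands without labels the first is that of ALDH-negative cells. The error given with a log2 ratio combines the errors deposited with the scanner readings of both spots. This error was 0.20 on the log2 scale for every member measured, whatever its signal. A log2 ratio within its own error is thus one inside a nearly fixed limit, and not inside a spread measured for that gene. Repeated spots had a combined SD of 0.075. Neither value covers the spread between cultures. A gene was called measured where a probe was well above background on at least 1 array, and higher or lower by the study's limits, which ask for a Z-score of at least 2 and a ratio of at least 1.5 for higher, and for a Z-score no greater than -2 and a ratio no greater than 0.75 for lower. The Z-score is the distance of a probe's log2 ratio from the mean of its neighbours in signal, 250 dimmer and 250 brighter probes, divided by their SD.

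On the arrays 28585 probes were measured, and no spot was saturated. The epithelial markers of 4T1 cells were measured in 6 of 6 genes with log2 ratios of 0.15 to 0.54, and their signals summed to 342362 in ALDH-negative against 386850 in ALDH-positive cells. Of 6 leukocyte markers, 2 were measured, and the list's signals summed to 8245 in ALDH-negative against 4477 in ALDH-positive cells. Most of it came from Itgam (7301 and 3795, log2 ratio -0.94, lower). The other 2 probes of Itgam were dim and parted (24.3 and 15.3, log2 ratio -0.67, and 21.8 and 28.4, log2 ratio 0.38, neither past a limit). Cd3e, the second marker measured, gave 917 and 664 (log2 ratio -0.47 ± 0.20), and its Z-score of -1.93 missed the limit. The pan-leukocyte marker Ptprc stayed below background on both arrays. Of the endothelial markers Kdr was lower (log2 ratio -0.43) on 1 probe with its other probe below background, Pecam1 was dim and above 0 (27.0 and 31.3, log2 ratio 0.21) and Cdh5 was below background. The 4 fibroblast markers summed to 169 and 167, with Dcn and Pdgfrb below background. Col1a1 was dim and outside its error (28.2 and 17.3, log2 ratio -0.70 ± 0.33), and Pdgfra gave 135 and 132 (-0.03). The part of these markers in the proteasome values was not tested, and fewer cells of a type cannot be told apart from less RNA per cell.

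Proteasome genes lay close to level between the populations. Of the 44 genes, 42 were measured, all on both arrays, and their log2 ratios had a median of 0.015, with the middle 50% between -0.05 and 0.06. In the 42 genes, 22 log2 ratios were above 0 and 20 below, beside 60.6% above 0 among the 13989 measured genes of the array. Scaling the arrays at their 75th percentile in place of quantile normalization put 31 of the 42 above 0, beside 66.7% of measured genes. No member was higher, beside 1.34% of all measured genes, and 1 member, Psmd14, was lower, beside 2.05%. In 39 of 42 members the log2 ratio was within its own error of 0, beside 66.9% of all measured genes, and the exceptions were Psmd14, Psme3 and Psme4.

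Most members gave strong signals, from 483 to 82880 in ALDH-negative cells, and strong probes scatter less than weak ones (SD of the log2 ratio 0.53 over all measured genes). Of the 7619 measured genes in the same signal range, 0.446% were higher, 1.27% lower, 62.2% above 0 and 81.4% within their own error. The SD of the log2 ratio was 0.14 in the members against 0.19 in these genes. They lie between the members' lowest and highest signal but were not matched to them inside that range. The part of signal in the smaller SD was not tested. The middle 95% of those 7619 genes ran from -0.31 to 0.38, and Psmd14 and Psme3 were the members outside it. Without these 2 genes, left out for their values while all 7619 were kept, the members' SD was 0.096 and their range -0.26 to 0.19. Before normalization every measured member read brighter on the ALDH-positive array. The median log2 ratio was 0.55 over the 42 member genes, each by its brightest probe, and 0.49 over all 28585 measured probes of any signal. These 2 sets are unlike, and their medians do not rank the members against the array. The values are thus relative to the array as a whole and say nothing of the amount of proteasome mRNA per cell.

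**Figure D1:**
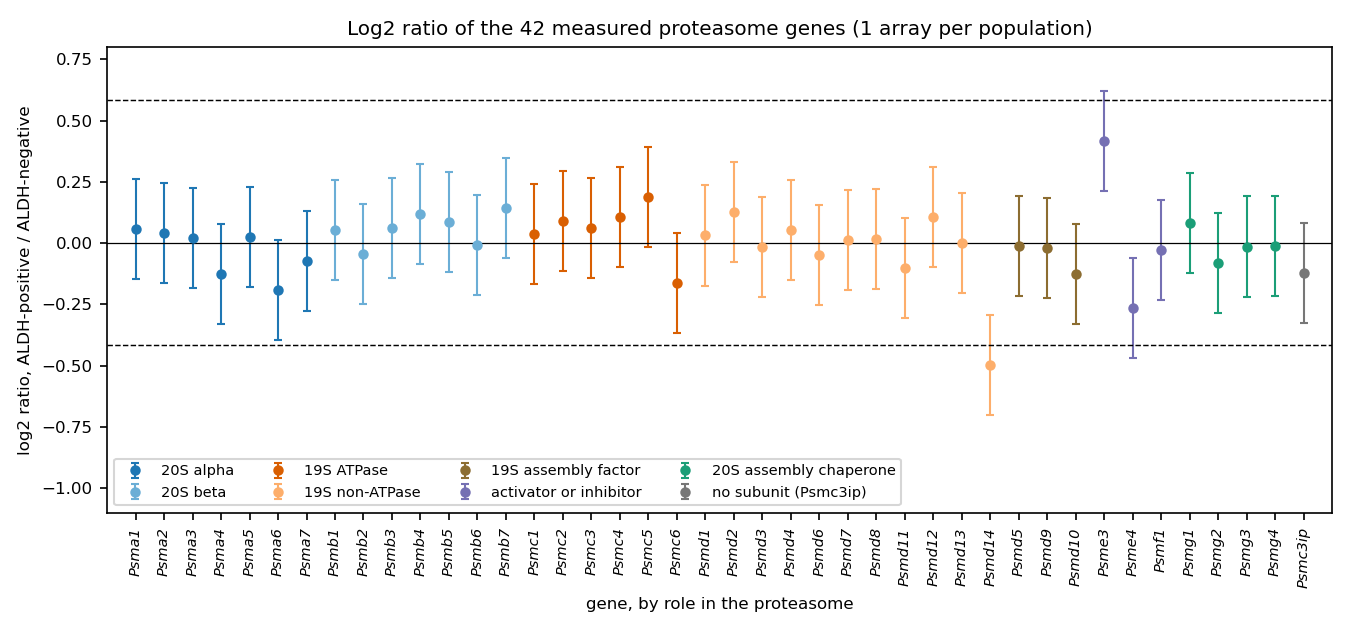
Log2 ratio of normalized signal, ALDH-positive over ALDH-negative, for each of the 42 measured proteasome genes, ordered by role. Points are 1 array per population, bars are the scanner's combined error, and dashed lines mark ratios of 1.5 and 0.75. Psmd14 lies under the lower line at -0.50, Psme3 at 0.42 stays under the upper line, and 39 of 42 bars reach 0.

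In the 20S core, 14 of 16 genes were measured and 9 of the 14 were above 0, with a median log2 ratio of 0.033, an SD of 0.093 and a range of -0.19 to 0.14. None was higher or lower, and all 14 were within their own error. The alpha subunits form the outer rings and the gate through which substrates enter. Psma6 had the lowest log2 ratio of the core (16385 in ALDH-negative against 14358 in ALDH-positive cells, log2 ratio -0.19 ± 0.20, scanner error), followed by Psma4 (8214 and 7534, -0.12) and Psma7 (38318 and 36444, -0.07). The other alpha genes, Psma1, Psma2, Psma3 and Psma5, had log2 ratios of 0.02 to 0.06, and the median of the 7 alpha genes was 0.020, which turned to -0.02 without background correction.

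Among the beta subunits, 3 carry the proteolytic sites of the standard proteasome. Psmb5, the chymotrypsin-like subunit and the main target of proteasome inhibitors such as bortezomib, gave 82880 in ALDH-negative against 88088 in ALDH-positive cells, which is a log2 ratio of 0.09. Psmb6, the caspase-like subunit, gave 43079 and 42840, a log2 ratio of -0.01. Psmb7, the trypsin-like subunit, gave 7446 and 8217, a log2 ratio of 0.14, which was the highest of the core. All 3 differences were smaller than the scanner error. Of the structural beta genes, Psmb4 gave 48038 and 52154 (0.12), Psmb1 and Psmb3 had log2 ratios of 0.06, and Psmb2 gave 1642 and 1594 (-0.04). The 7 beta genes had a median of 0.061.

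The variant core subunits were not well above background. Psma8, an alpha subunit of the testis proteasome, read 4.72 in ALDH-negative against 2.97 in ALDH-positive cells, and Psmb11, the catalytic subunit of the thymus proteasome, read 2.89 and 5.01. Neither carries a fold, since both arrays were below background.

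The regulatory particle and the core had medians close to each other. The 21 genes of the regulatory particle were all measured, 11 were above 0, and their median log2 ratio was 0.012 with an SD of 0.14. The core median was 0.021 higher than that of the regulatory particle, a difference with no test, and over all settings of the processing the difference ran from -0.0023 to 0.021. Without Psmc3ip (1202 and 1106, log2 ratio -0.12) the median was 0.015, and without it and the 3 assembly factors it was 0.031 over 17 genes.

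The 6 ATPases form the ring that unfolds substrates, and 5 of the 6 were above 0, with a median log2 ratio of 0.075. Psmc5 was the highest of the regulatory particle (13434 in ALDH-negative against 15310 in ALDH-positive cells, log2 ratio 0.19 ± 0.20, scanner error), and Psmc4 gave 8402 and 9041 (0.11). Psmc1, Psmc2 and Psmc3 had log2 ratios of 0.04 to 0.09. Psmc6 was the ATPase below 0, with 5683 and 5083 and a log2 ratio of -0.16. The 6 ATPases thus spanned -0.16 to 0.19, and none left its own error.

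The 11 non-ATPase subunits had a median log2 ratio of 0.012. Psmd2, which together with Psmd1 forms the scaffold at the base, gave 18698 and 20417 (0.13), and Psmd1 gave 25243 and 25794 (0.03). Psmd4, a ubiquitin receptor, gave 36360 and 37752 (0.05). Psmd12, a lid subunit, gave 19081 and 20536 (0.11). The other lid genes apart from Psmd14, namely Psmd3, Psmd6, Psmd7, Psmd8, Psmd11 and Psmd13, had log2 ratios between -0.10 (Psmd11) and 0.02 (Psmd8). The 3 assembly factors of the base were below 0 in the reported setting, while 2 of them were above 0 when the arrays were scaled at the 75th percentile. Psmd10, known as gankyrin, gave 968 and 888 (-0.12), Psmd9 gave 1309 and 1290 (-0.02) and Psmd5 gave 2611 and 2586 (-0.01).

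Psmd14 was the one proteasome gene past the limits for lower. It encodes the metalloprotease of the lid, known as Rpn11, which cuts the ubiquitin chain from a substrate as the substrate is drawn into the core. Its single probe read 3701 in ALDH-negative against 2622 in ALDH-positive cells, a ratio of 0.708 with a log2 ratio of -0.50 ± 0.20 (scanner error) and a Z-score of -2.79. Before normalization the spot read 3040 and 3182, a log2 ratio of 0.066, which was the lowest of the 42 members and the nearest to level on an array pair where the members' median was 0.55. Psmd7, the subunit with which Psmd14 pairs in the lid and named here after its value was seen, read 7954 and 8019, a log2 ratio of 0.01. The probe lies in Psmd14 at chr2:61599058-61599117 on the plus strand of the NCBI37 (mm9) build, spans 60 bases of the genome with no gap, and starts at base 458 of the transcript. Its 60 bases read without a stop codon in 1 frame, and an annotation of the coding sequence was not used here. It is shown because the only call among the members rests on this one 60-base sequence, given in lower case with no part marked.

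Psmd14 probe: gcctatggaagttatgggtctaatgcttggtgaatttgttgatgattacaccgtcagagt

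The call of Psmd14 depended on the processing, while its log2 ratio was below 0 in every setting tried. All these settings scale the 2 arrays to each other, and before scaling the log2 ratio was 0.066. The log2 ratio stayed between -0.50 and -0.40 in every setting tried, and in 5 of 11 alternatives it missed a limit, as given in the closing section. Several alternatives could not change this log2 ratio. The Z-score windows and the ratio limit act only on the call. Asking for probes above background on both arrays, or taking the median over probes, leaves this gene's 1 probe and its Z-score as they were. With 1 probe and 1 array per population, no second reading of this gene was available.

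Among the genes outside both particles, Psme3 had the highest log2 ratio of all members. It encodes PA28 gamma, a nuclear cap of the core that promotes degradation of some proteins without ubiquitin. Its signal was 1667 in ALDH-negative against 2225 in ALDH-positive cells, giving a log2 ratio of 0.42 ± 0.20 (scanner error) with a Z-score of 2.11, and its ratio of 1.33 missed the limit of 1.5. Psme4, which encodes the activator PA200, went the other way, with 638 and 531 and a log2 ratio of -0.26 ± 0.20. Its other probe gave 258 and 221 and a log2 ratio of -0.22, with a Z-score of -0.74 beside -1.07 for the brighter probe. Psmf1, an inhibitor of the core known as PI31, gave 483 and 473 (-0.03). The 3 genes that encode caps or an inhibitor of the core thus held the member with the highest log2 ratio and the member with the second lowest.

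The chaperones that build the core lay near 0 on the log2 scale, and their signs turned with the scaling (1 of 4 above 0 here and 3 of 4 at the 75th percentile). Psmg1 gave 10025 in ALDH-negative against 10598 in ALDH-positive cells (log2 ratio 0.08), Psmg2 gave 590 and 558 (-0.08), Psmg3 gave 2537 and 2513 (-0.01) and Psmg4 gave 1928 and 1912 (-0.01). All 4 were within their own error.

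**Figure D2:**
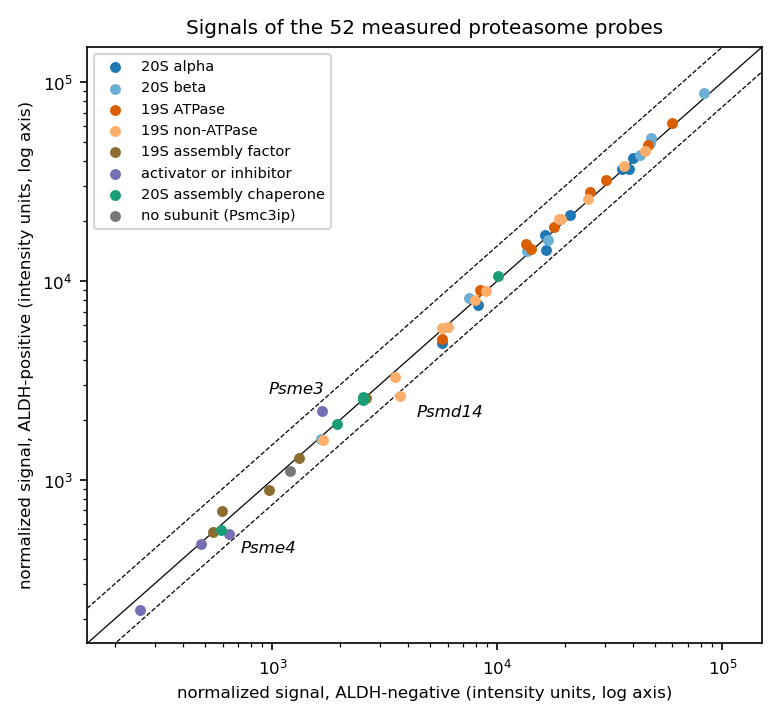
Normalized signal of the 52 measured proteasome probes in ALDH-negative (x) and ALDH-positive (y) cells, in intensity units on log axes, coloured by role. The solid line marks equal signal and the dashed lines ratios of 1.5 and 0.75. The Psmd14 point falls under the lower dashed line and the Psme3 point, with a ratio of 1.33, stays inside the upper one.

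Of the members, 10 were read by 2 probes, which gives a repeat reading of those genes. The 2 probes of a gene differed in log2 ratio by a median of 0.063 and by at most 0.23 (Psmd9), against a median of 0.17 over the 3220 genes of the array with 2 measured probes. Those genes were not matched to the members in signal, and weak probes scatter more. The sign differed in 4 of the 10 genes, beside 39.4% of all such genes: Psmb5 (0.09 and -0.05), Psmd9 (-0.02 and 0.21), Psmd10 (-0.12 and 0.01) and Psmd12 (0.11 and -0.09), in each case with the brighter probe first. For these 4 genes no direction can be given. Psma4 (-0.12 and -0.21) and Psme4 (-0.26 and -0.22) were below 0 on both probes, and Psmc1, Psmc2, Psmc3 and Psmg1 were above 0 on both, although the 2 probes of Psmc2 share 50 bases.

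The probe nearer the 3′ end of the transcript had the higher log2 ratio in 9 of the 10 genes, with Psme4 as the exception, and the median difference was 0.060. Over the 2737 genes of the array with 2 measured probes on the same transcript, the 3′ probe was higher in 61.6%, with a median difference of 0.059. Psma4 and Psmd12 are shown as examples, Psma4 with 2 probes below 0 and Psmd12 with probes that differ in sign. Psmb5 is shown by its probe nearer the 5′ end, which gave -0.05 where the other gave 0.09. The first Psma4 probe starts at base 409 of the transcript and spans chr9:54802741-54804087, the second starts at base 643 and spans chr9:54804685-54805444. The first Psmd12 probe starts at base 287 (chr11:107347092-107347728) and the second at base 1335 (chr11:107358963-107359022). All 5 probes read without a stop codon in at least 1 frame. Those of Psma4 and Psmd12 are on the plus strand of NCBI37, and a span longer than 60 bases means that the probe crosses an intron. The Psmb5 probe starts at base 607 and lies on the minus strand of the same build (chr14:55233161-55233220).

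Psma4 probe, nearer 5′ end, log2 ratio -0.21: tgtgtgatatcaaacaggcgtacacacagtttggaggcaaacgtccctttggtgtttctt
Psma4 probe, nearer 3′ end, log2 ratio -0.12: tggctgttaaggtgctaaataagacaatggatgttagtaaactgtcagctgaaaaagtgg
Psmd12 probe, nearer 5′ end, log2 ratio -0.09: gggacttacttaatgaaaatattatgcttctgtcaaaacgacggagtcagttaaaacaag
Psmd12 probe, nearer 3′ end, log2 ratio 0.11: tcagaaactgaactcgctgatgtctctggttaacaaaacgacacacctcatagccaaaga
Psmb5 probe, nearer 5′ end, log2 ratio -0.05: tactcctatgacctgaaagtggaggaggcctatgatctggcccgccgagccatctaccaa

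**Figure D3:**
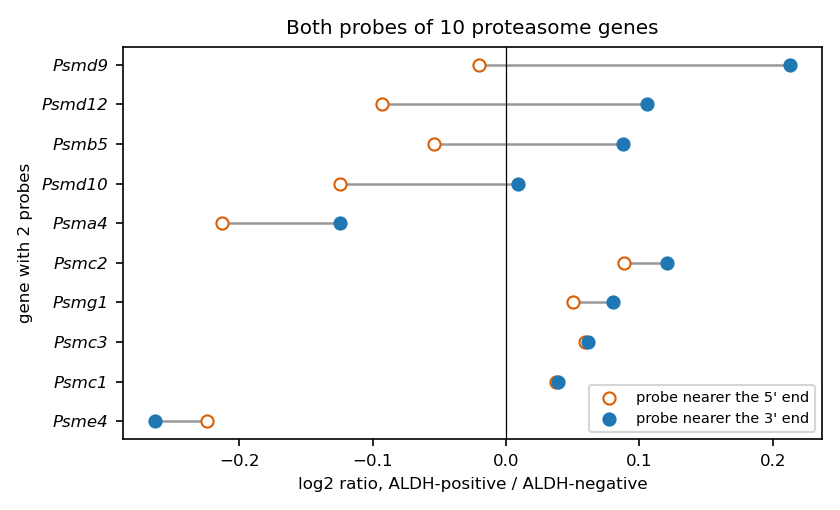
Log2 ratio (ALDH-positive over ALDH-negative) of both probes for the 10 proteasome genes with 2 probes, open for the probe nearer the 5′ end and filled for the probe nearer the 3′ end. In 9 of 10 genes the filled point lies to the right, and 4 of the connecting lines cross 0.

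Over the 52 measured member probes, a higher log2 ratio went with a higher mean log2 signal of the probe (Spearman's rho 0.47, Pearson's r 0.33), while over 19023 measured probes with a symbol rho was -0.05. Those 19023 probes were not matched to the members in signal, so whether the trend is particular to the members was not tested. With the probe's position in the transcript rho was 0.34 (r 0.093) among the members and 0.12 over all, and with GC content it was 0.024 among the members. These are descriptions over probes that share the same 2 arrays, and several probes share a gene.

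Other genes of the pathway also lay close to level. In the 4 lists that follow, no gene was higher or lower, beside the 1.34% and 2.05% of all measured genes. By the brightest probe of each gene, the 5 excepted genes were all above 0 with a median log2 ratio of 0.046. In 4 alternatives 4 of 5 were: no background correction, normexp, the median over a gene's probes, and leaving out the last eighth of rows and columns. Psme2 gave 0.03 on its brightest probe, -0.05 on the next (7495 and 7232) and -0.20 on its dimmest (21.7 and 18.8), each within its error. Its dimmer probes were named after their values were seen. Psmb9 gave 1178 in ALDH-negative against 1427 in ALDH-positive cells (0.28), Psmb8 gave 3790 and 4208 (0.15) and Psmb10 gave 25029 and 25846 (0.05), and these 3 encode the interferon-inducible counterparts of the standard proteolytic subunits. Psmb9 was the one of the 5 outside its own error.

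Of the other factors bound to the proteasome, 10 were measured, 6 above 0 and 4 below, with a median of 0.017, and Paaf1 was not measured. Txnl1, a thioredoxin-like protein of the regulatory particle, gave 187 and 146 (-0.36), and Ecpas, a proteasome adaptor listed on the array as AI314180, gave 225 and 176 (-0.35). Both were outside their own error. Akirin2, needed for import of the proteasome into the nucleus, gave 3709 and 4113 (0.15).

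Among genes that regulate proteasome transcription, Nfe2l1 gave 379 in ALDH-negative against 327 in ALDH-positive cells (-0.21), its relative Nfe2l2 gave 3684 and 3653 (-0.01), Rbpj gave 2238 and 2026 (-0.14) and Stat3 gave 1720 and 1941 (0.17). By the brightest probe of each gene, Nfe2l1 alone lay outside its own error, and narrowly. A dimmer Rbpj probe gave 425 and 308 (-0.47), outside its error but not past the limits. A dimmer Stat3 probe gave 14.1, below background, and 25.6 (0.86 ± 0.43). Ddi2 gave -0.04 on its brighter probe and 0.16 on the other, each within its error. The 5 measured regulators had a median of -0.04, which was 0.014 at the 75th percentile scaling, and Ngly1, which activates Nfe2l1 protein, was not measured. The 13 ubiquitin and shuttle genes had a median of -0.01, which was 0.028 at the 75th percentile scaling and 0.080 where the median over a gene's probes was taken, and all 13 were within their own error. The shuttle factor Rad23b gave 3043 and 2690 (-0.18), and Ubqln4, of the ubiquilin family of shuttle factors, gave 432 and 479 (0.15). The ubiquitin gene Ubb gave 128211 and 127326 (-0.01), and the activating enzyme Uba1 gave 39362 and 43803 (0.15). In this list the probes of Ufd1, a partner of the segregase Vcp, parted the most. Its brighter probe gave 3816 and 3773 (-0.02), and its dimmer one, past the limits for higher, gave 139 and 279 (1.01). Signs also differed between the probes of Ubb, Rad23b, Rps27a and Uba6. The dimmer Ubb probe gave 66104 and 76804 (0.22), outside its error. Rad23b gave 0.15 on a dimmer probe and -0.17 on its dimmest. Rps27a gave 0.08 on its brightest probe, -0.08 on the next and, outside its error, 0.29 on its dimmest. Uba6 gave 0.02 and, on its dimmer probe, -0.03. These other probes of the regulators and of the ubiquitin and shuttle genes were named after their values were seen.

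**Figure D4:**
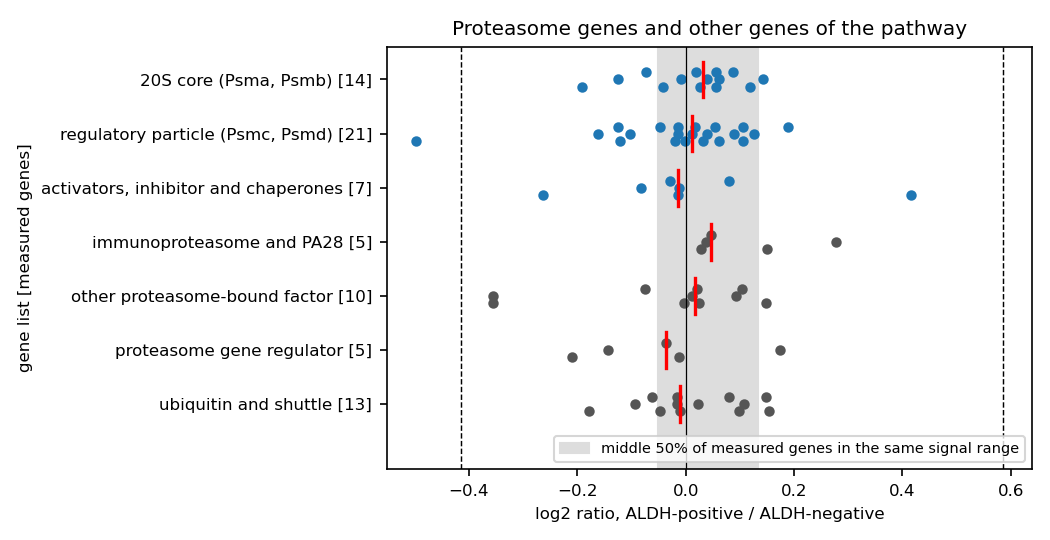
Log2 ratio (ALDH-positive over ALDH-negative) of each measured gene by list, with the number of measured genes in brackets, red bars for the medians and the grey band for the middle 50% of measured genes in the same signal range. Dashed lines mark ratios of 0.75 and 1.5. All medians fall between -0.04 and 0.05, and Psmd14 is the point left of the lower line.

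The promoters of the members were searched for motifs of factors known to act on proteasome or housekeeping genes. RefSeq promoters on GRCm38.p6 were held for 36 of the 44 members, 38 promoters in all, and the 250 bases before the start were read on both strands. The ETS motif CCGGAAG stood in 14 of the 38 promoters (36.8%), against 6.91% of all 32851 promoters and 12.4% of the 13950 promoters of measured genes. It stood in 9 of 18 genes with Psmc or Psmd symbols and in 1 of 12 core genes, Psma6. The 9 include Psmc3ip, which is no subunit. The 18 also include the assembly factors Psmd5, Psmd9 and Psmd10, which lacked the motif. The median log2 ratio was 0.04 in the 13 genes with the motif and 0.0085 in the 22 measured genes without it, with no test of the difference.

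The core of the antioxidant response element, TGACNNNGC, through which Nfe2l1 and Nfe2l2 act, stood in 5 promoters (13.2%, against 10.2% of all and 11.5% of those of measured genes): Psmb5, Psmb6, Psmc6, Psmd9 and Psmd12. Their log2 ratios ran from -0.16 to 0.11. The E-box CACGTG, bound by the circadian factor CLOCK that the study is about, stood in 3 promoters (7.89%, against 6.02% and 7.86%), those of Psma4 (log2 ratio -0.12), Psmd9 (-0.02) and Psme3 (0.42). The CCAAT box stood in 36.8%, against 33.8% and 35.3%, and the GC box GGGCGG in 50% of member promoters, against 32.7% and 53.9%. A match is a run of letters and no measured site.

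The promoters of Psmd14, Psme3, Psmd12 and Psmb5 are printed because they show these motifs in the members farthest from level and in those where the probes disagreed. Capitals mark every match, in either orientation, and no match of one motif overlaps a match of another. Positions are on GRCm38.p6. In the Psmd14 promoter (chr2:61711444-61711693, plus strand) the capitals mark a CCAAT box that begins 159 bases before the start and 3 GC boxes. In that of Psme3 (chr11:101315963-101316212, plus strand) they mark the ETS motif, then the E-box 44 bases and a CCAAT box 14 bases before the start. The Psmd12 promoter (chr11:107479278-107479527, plus strand) holds the antioxidant response element core 247 bases, GC boxes 169 and 153 bases and the ETS motif 17 bases before the start. In the Psmb5 promoter (chr14:54617996-54618245, minus strand) the capitals mark the antioxidant response element core 47 bases before the start.

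Psmd14 promoter: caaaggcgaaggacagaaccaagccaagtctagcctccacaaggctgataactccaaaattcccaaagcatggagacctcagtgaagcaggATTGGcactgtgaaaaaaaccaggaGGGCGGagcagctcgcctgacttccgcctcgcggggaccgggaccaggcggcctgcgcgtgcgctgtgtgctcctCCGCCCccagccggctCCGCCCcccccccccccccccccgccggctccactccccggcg
Psme3 promoter: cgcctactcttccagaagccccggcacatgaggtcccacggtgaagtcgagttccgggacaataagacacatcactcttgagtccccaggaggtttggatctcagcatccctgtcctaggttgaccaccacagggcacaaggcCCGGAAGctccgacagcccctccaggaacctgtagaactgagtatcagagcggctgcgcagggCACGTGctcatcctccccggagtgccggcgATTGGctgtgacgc
Psmd12 promoter: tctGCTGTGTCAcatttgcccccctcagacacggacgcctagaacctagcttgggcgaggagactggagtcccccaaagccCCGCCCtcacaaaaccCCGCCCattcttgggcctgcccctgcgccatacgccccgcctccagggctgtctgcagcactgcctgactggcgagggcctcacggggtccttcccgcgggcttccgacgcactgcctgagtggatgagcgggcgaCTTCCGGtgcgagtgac
Psmb5 promoter: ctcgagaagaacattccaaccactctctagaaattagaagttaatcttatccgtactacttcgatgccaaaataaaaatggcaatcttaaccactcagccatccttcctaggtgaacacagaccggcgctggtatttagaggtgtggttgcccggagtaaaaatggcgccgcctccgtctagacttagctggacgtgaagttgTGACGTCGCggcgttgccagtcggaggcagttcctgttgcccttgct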

How the data were processed

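RNA of ALDH-positive and ALDH-negative 4T1 cells was labelled with Cy3 and hybridized to 1-colour Agilent SurePrint G3 Mouse arrays, 1 per population. The authors extracted the intensities with Agilent Feature Extraction (9.5.1.1 per the labels, 10.7.1.1 in the file headers) and deposited, per spot, a mean signal, a background and a background-subtracted processed intensity with its error, and a table of quantile-normalized intensities. Probe positions are on NCBI37 per the file headers.

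Here, the 3671 control spots were left out, repeated spots were averaged, signals under 1 were set to 1, and the log2 processed signals were quantile-normalized over both arrays, as in the study's methods. The gene value is that of its measured probe with the highest mean log2 signal. The Z-score used 250 probes on either side. The selection was tested on simulated data. With 1 array per population no test was run; the number of arrays limits the precision, and repeated spots had a combined SD of 0.075 on the log2 scale. Named genes were every member past the limits, the 3 highest and 3 lowest log2 ratios of the core and of the regulatory particle, the catalytic subunits, the members outside both particles, those below background or whose probes disagree in sign or by over 0.3, and up to 3 members of each other list farthest from 0; the remaining members are given to account for all. Members, lists and motifs were chosen with earlier results of these data known. 1 gene of the ubiquitin and shuttle list is not reported here and was left out of its values. All 44 members were matched by accession to the gene table (GRCm38.p6), and 10 of the 42 measured members lay in the last eighth of the array's rows or columns. Alternatives were a 75th percentile shift, normexp (limma 3.58.1, offset 50), no background correction, the deposited table, probes above background on both arrays, the median over a gene's probes, leaving out the last eighth of rows and columns, windows of 100, 500 or all probes, and a ratio limit of 1.5 both ways. Python 3.11.15, numpy 2.4.6, pandas 2.3.3 and R 4.3.3 were used.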

Additional observations from a re-analysis of the deposited data

How the results depend on the processing

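The count of members called lower was 1 (Psmd14) in the reported setting and in 6 of the 11 alternatives. Among these 6, the call of Psmd14 was bound to stay with probes above background on both arrays and with the median over a gene's probes. The deposited table holds quantile-normalized intensities, like the reported setting. It was 0 under the 75th percentile shift (Psmd14 log2 ratio -0.40), normexp (Z-score -1.67), no background correction (Z-score -1.66), a Z-score over all probes (-0.80) and a ratio limit of 1.5 both ways. The alternatives differ from the reported setting in the step named, and the cause was not tested. No member was higher in any setting. Over the settings the median log2 ratio ran from 0.023 to 0.087 in the core, from 0.012 to 0.082 in the regulatory particle and from 0.014 to 0.083 over all measured members. Under the 75th percentile shift 31 of 42 members were above 0, beside 66.7% of all measured genes, and under normexp or no background correction 28 were, against 22 of 42 and 60.6% in the reported setting. The shift moved the median of all measured genes from 0.045 to 0.091. All 170 recomputed values of 25 named members moved by less than the gene's scanner error. That error of 0.20 is wider than most of the log2 ratios, so signs could turn inside it. Psmb5 went from 0.09 to -0.06 without the last eighth of rows and columns, and Psmd9 from -0.02 to 0.05 under the 75th percentile shift. Some of the values could not move. Asking for probes above background on both arrays kept every measured member probe, and the median over probes leaves a gene with 1 probe as it was. Leaving Psmc3ip, or Psmc3ip and the assembly factors, out of the regulatory particle was chosen after the data were seen. No paired analysis was possible because each population was hybridized once. For the same reason no replicate could be left out.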
